A study of Mus musculus with 18 samples.

Results

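The 49 genes described here carry glucose to lactate or through the tricarboxylic acid (TCA) cycle: the glucose transporter and enzymes of glycolysis, lactate dehydrogenases and monocarboxylate transporters, the kinases and phosphatases that switch pyruvate dehydrogenase, the routes of pyruvate into mitochondria, and the TCA cycle enzymes. They were taken as a fixed list of gene names, which was chosen with earlier results of these data known. All 49 are among the 46983 gene names of both the bone marrow and the adipose count table. The donors of the RNA were male mice of the inbred strain C57BL/6J, and HFD stands in every sample description. The 9 bone marrow libraries are titled mBMSC and the 9 adipose libraries mAT-MSC VAT. In each tissue 4 libraries are labelled Ctrl for genotype and no for treatment (called HFD here), and 5 are labelled Glutamine in both fields (called glutamine here), so no group without HFD was part of the comparison. The labels give neither the age of the mice nor the dose or duration of the glutamine. The labels do not say whether the libraries of a group came from separate animals, so p-values measure only the spread between these libraries, which may be technical. The number pairs in the labels name the libraries below, and 1 bone marrow glutamine library whose column carries a pair found in no title is called unnumbered. The purpose stated in the series title is to learn what glutamine does for the skeleton and for fitness in obesity.

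Glycolysis splits glucose into pyruvate in the cytosol. Pyruvate is then either reduced to lactate by lactate dehydrogenase and exported with a proton, or carried into mitochondria, where the pyruvate dehydrogenase complex turns it into acetyl-CoA and pyruvate carboxylase turns it into oxaloacetate. Pyruvate dehydrogenase kinases switch the complex off and the phosphatases switch it on. Glutamine enters the TCA cycle as 2-oxoglutarate, below citrate synthase and isocitrate dehydrogenase, so a cell fed with glutamine can run part of the cycle without pyruvate. Mesenchymal stromal cells and osteoblasts are known for a high rate of glycolysis with lactate release, and adipose tissue for lactate production.

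Among the members, the lactate exporter Slc16a3 had the largest adipose fold change with glutamine, and Ldha and Ldhb gave the 1 paralogue share of 12 without overlap between tissues, so the promoters of these 3 genes are shown. Each is written 5′ to 3′ on the gene's own strand, from RefSeq on GRCm38.p6, and covers 250 bases before to 50 after the start of the transcript. Capitals mark ACGTG on either strand (CACGT when read on the strand shown), a form of the core that hypoxia-inducible factors are known to bind. These letters also lie inside CACGTG, the E-box core. Ldha encodes the A subunit of lactate dehydrogenase (chr7:46845554-46845853, plus strand), Ldhb the B subunit (chr6:142507908-142508207, minus strand) and Slc16a3 the lactate exporter MCT4 (chr11:120948817-120949116, plus strand).
Ldha: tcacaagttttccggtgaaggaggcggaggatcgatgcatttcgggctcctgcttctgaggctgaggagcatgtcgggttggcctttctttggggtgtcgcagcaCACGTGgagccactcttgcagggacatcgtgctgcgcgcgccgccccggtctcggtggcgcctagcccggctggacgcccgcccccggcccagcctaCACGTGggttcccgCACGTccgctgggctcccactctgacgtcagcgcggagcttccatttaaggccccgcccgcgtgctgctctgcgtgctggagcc
Ldhb: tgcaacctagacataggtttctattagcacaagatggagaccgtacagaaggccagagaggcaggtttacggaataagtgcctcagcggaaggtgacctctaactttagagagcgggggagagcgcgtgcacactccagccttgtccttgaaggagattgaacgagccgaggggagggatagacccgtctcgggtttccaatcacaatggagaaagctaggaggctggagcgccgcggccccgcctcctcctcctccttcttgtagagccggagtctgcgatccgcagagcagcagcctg
Slc16a3: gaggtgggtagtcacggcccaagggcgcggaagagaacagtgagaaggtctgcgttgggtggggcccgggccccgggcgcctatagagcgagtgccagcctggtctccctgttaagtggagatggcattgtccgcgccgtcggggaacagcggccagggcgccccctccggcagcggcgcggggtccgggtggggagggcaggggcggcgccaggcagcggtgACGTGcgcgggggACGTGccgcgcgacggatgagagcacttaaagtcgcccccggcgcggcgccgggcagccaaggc
The Ldha window held ACGTG at 5 positions, of which the pairs at -145 and -144 and at -48 and -47 are both strands of 1 CACGTG, and the fifth lies at -34 from the start. The Slc16a3 window held it at -27 and -14, and the Ldhb window did not hold ACGTG on either strand. Other forms of the core, such as GCGTG, were neither searched nor marked, and GCGTG stands in the Ldha and Ldhb windows. A promoter window was found for 46 of the 49 members, 66 windows in all, and 28 of the 66 (42.4%) held ACGTG on either strand, against 19.6% of 32851 windows of the same length over all genes. CACGTG was in 13.6% of the member windows and 7.15% of all windows. These matches describe the letters and show no binding.

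Depth and content differed between the tissues before any member is considered. The adipose libraries held 35871168 to 59529238 counts and 11361 to 14469 genes with at least 100 counts. The bone marrow libraries held 13970788 to 37984603 counts but only 1755 to 7323 such genes. In bone marrow the fewest were in HFD 23_28 (1755) and in the unnumbered library (1831), and the most in glutamine 18_20 (7323). The adipose libraries had adipose progenitor markers at summed levels of 14978 to 22684 CPM (a gene's counts scaled to a fixed library total) and, besides, endothelial, macrophage, mesothelial and B and plasma cell markers. The progenitor sum was led by Dcn, with a mean log2 CPM of 13.8 in adipose against 10.4 for Fabp4. In bone marrow the same 10 genes summed to 1603 to 5155 CPM. Of the 10, 8 had fold changes of adipose over bone marrow above 0, while Pdgfra and Pdgfrb were below 0. The bone marrow libraries had 12 osteoblast markers summing to 64818 to 302416 CPM, marrow stroma markers to 2264 to 13595 CPM and neutrophil markers to 2700 to 55155 CPM. Chondrocyte markers summed to 912 to 11588 CPM there and erythroid markers to 1610 to 5343 CPM, so neither kind of library held stromal markers alone. The osteoblast sum was led by the collagen genes Col1a1 and Col1a2, with mean log2 CPM of 17.2 and 15.5 against 11.3 for Bglap. In adipose the same 12 genes summed to 8820 to 16521 CPM. In bone marrow 5 of them reached 100 counts in every HFD library and 5 in every glutamine library. In such bulk samples fewer cells of a type and less RNA per cell cannot be told apart.

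**Figure D1:**
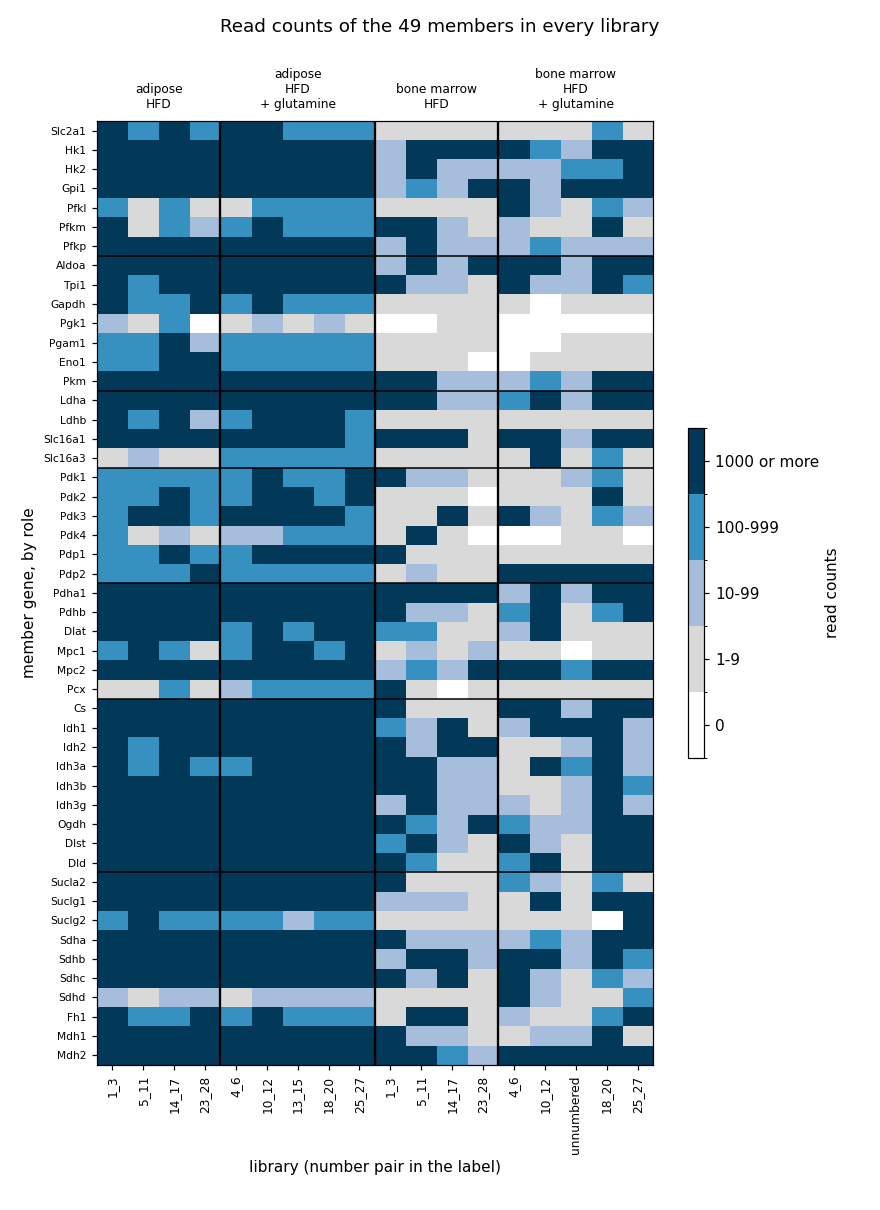
Read counts of the 49 members (rows, ordered by role) in the 18 libraries (columns, by tissue and treatment), in bands of counts shown on the colour bar. In adipose 67.1% of the member values were 1000 or more counts, while in bone marrow the same gene could hold over 1000 counts in 1 library and under 10 in the next.

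In adipose libraries nearly the whole pathway was measured. Since the counts are of transcript 3′ ends, CPM was used to compare genes without a length correction, and all levels between genes below are on that scale. How fully the 3′ end of each gene was counted was not tested. On average 44.7 ± 2.65 of the 49 members (SD, n = 9) reached 100 counts, and 38 did so in every adipose library. Together they took 0.295% to 0.378% of a library's counts. The TCA enzyme gene Mdh2 (mitochondrial malate dehydrogenase) was highest at 259 ± 67.3 CPM (SD, n = 9), followed by the hexokinase gene Hk2 at 251 ± 61.3 CPM and the aldolase gene Aldoa at 224 ± 71.9 CPM. These neighbours in the order lay within 1 SD of each other. The lowest were Pgk1 (phosphoglycerate kinase) at 0.501 ± 0.685 CPM and Sdhd (a membrane anchor of succinate dehydrogenase) at 0.758 ± 0.517 CPM. Other enzymes of lower glycolysis were low as well: Gapdh at 14.1 ± 10.2 CPM, Eno1 at 15.7 ± 6.54 CPM and Pgam1 at 12.7 ± 8.04 CPM, against 146 ± 21.2 CPM for Pkm (pyruvate kinase), which follows them.

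Near-identical copies bear on those low values. Over the last 500 bases of the transcripts, 13 members had at least 1 other annotated gene that was 95% or more identical over 100 bases or more. Gapdh had 97, of which 92 are pseudogenes, and these copies held 1389 adipose counts in all beside 6466 for Gapdh itself. Eno1 had 4, of which Eno1b held 323 adipose counts beside 6763 for Eno1. Ldha had 6, Pkm 5 and Gpi1 4, at 46754, 63465 and 76328 adipose counts of their own, so a copy did not go with a low level in each case. For Pfkp and Pdha1 the match is a neighbour that overlaps on the other strand, Pitrm1 and Map3k15. Pgk1 and Sdhd had no such copy, and the reason for their low counts was not tested. How the authors counted reads that fit several genes is not given in the sources used here, so the levels of Gapdh and Eno1 are uncertain.

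The hexokinases, phosphofructokinases, lactate dehydrogenases and monocarboxylate transporters each had the same leading gene in all 9 adipose libraries. Hk2, the insulin-responsive hexokinase, made up 63.8% ± 8.76 (SD, n = 9) of the counts of Hk1 and Hk2 together. Pfkp, the platelet-type phosphofructokinase, made up 91.4% ± 5.40 of the phosphofructokinase counts, with 182 ± 23.8 CPM. Pfkl was at 3 to 6 counts in 3 libraries (HFD 5_11 and 23_28, glutamine 4_6) and at 189 to 687 in the other 6, and Mpc1, a subunit of the mitochondrial pyruvate carrier, was at 4 counts in HFD 23_28 and 740 to 1332 elsewhere. Ldhb made up 17.3% ± 9.81 of the lactate dehydrogenase counts, so Ldha led. Among the monocarboxylate transporters Slc16a1 (MCT1) led with 51.1 ± 24.4 CPM, and Pdk4, the kinase induced by fasting and fatty acids, was the lowest of the 4 kinases at 2.19 ± 2.14 CPM. Mpc2 beside Mpc1, Mdh2 beside Mdh1 and Sucla2 beside Suclg2 also led in all 9 adipose libraries. For Idh1 and Idh2, and for the phosphatases Pdp1 and Pdp2, the lead changed between adipose libraries. Idh1 made up 42.7% to 85.3% of the counts of Idh1 and Idh2, and Pdp2 made up 61.5% and 86.9% of the phosphatase counts in HFD 5_11 and 23_28 and 18.9% to 37.5% in the other 7.

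The main question of the design was whether glutamine changed these genes. In adipose 0 of the 49 members, all of which were tested, were called (edgeR adjusted p under 0.05), as were 0% of the 15114 genes tested. DESeq2, which gave 3 members no adjusted p, and limma-voom also called 0. At an unadjusted p under 0.05 edgeR had 1 member, against 4.13% of all genes. The fold changes of glutamine over HFD were above 0 for 20 members and below 0 for 29, where 48.6% of all genes were above 0, with a median of -0.05 (log2) against -0.02 over all genes. The members' share of a library's counts was 0.333% ± 0.0261 in HFD (SD, n = 4) and 0.335% ± 0.0314 in glutamine (SD, n = 5).

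**Figure D2:**
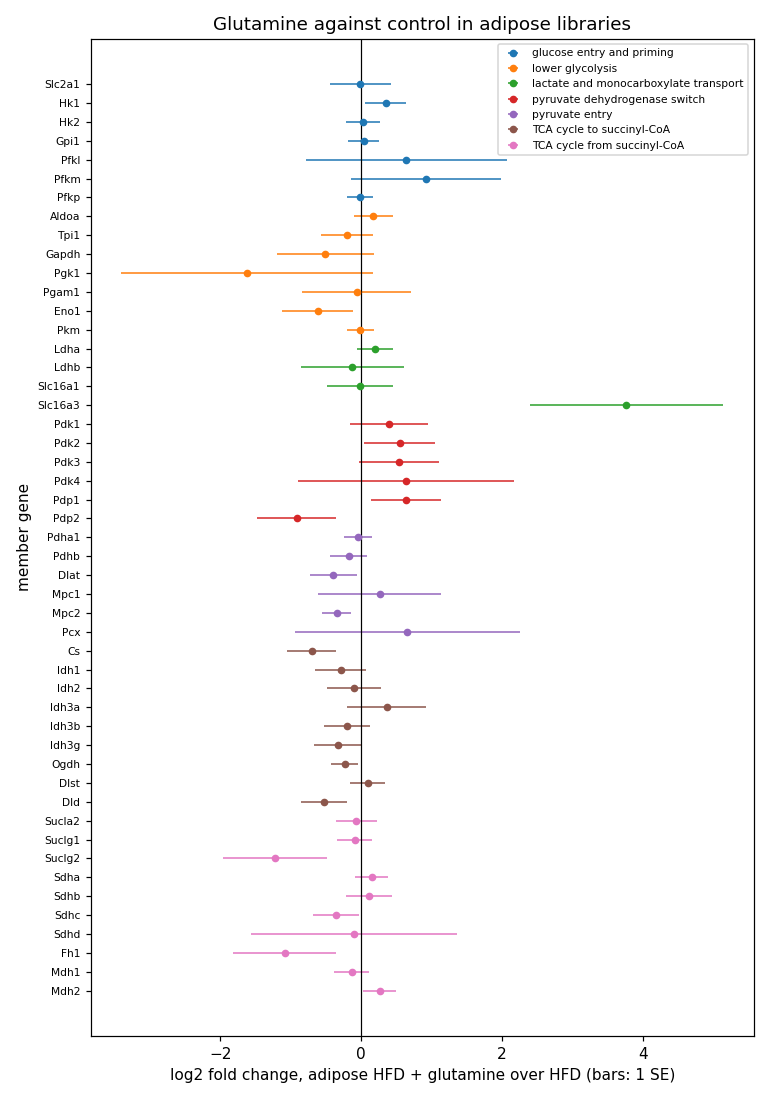
Fitted log2 fold change of each member, glutamine over HFD, in the 9 adipose libraries, with bars of 1 standard error and colours for the 7 roles. Slc16a3 stands at 3.77, and the well-measured enzymes such as Pkm and Pfkp sit at 0 with short bars.

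The 1 member with a small p was Slc16a3 (ENSMUSG00000025161.16, chr11:120948480-120960868, plus strand), which encodes MCT4, the low-affinity transporter that exports lactate from glycolytic cells. Its counts were 9, 33, 6 and 8 in the HFD libraries 1_3, 5_11, 14_17 and 23_28. In the glutamine libraries 4_6, 10_12, 13_15, 18_20 and 25_27 they were 260, 224, 447, 124 and 138. Every glutamine library lay above every HFD library, which held for no other member. Over all genes 1.67% had groups without overlap, 1.03% with glutamine higher, so 1 of 49 members is close to the share over all genes. The levels were 0.345 ± 0.384 CPM (SD, n = 4) and 4.84 ± 2.59 CPM (SD, n = 5), and the fitted log2 fold change was 3.77 ± 1.38 (SE). The unadjusted p from edgeR was 0.0163 and the adjusted p 1.00, so the difference did not pass the test across all genes. The adjusted p ran from 0.0995 (DESeq2) to 1.00 over all alternatives, and the fold change from 3.44 to 5.07. Without the HFD library 5_11, the highest of its group, it was 4.96.

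MCT4 was read against MCT1 within each library, which removes the scaling. Slc16a3 made up 0.972% ± 1.39 of the counts of both transporters in HFD (0.203% to 3.05%, n = 4) and 10.8% ± 7.14 in glutamine (5.01% to 20.4%, n = 5). The groups did not overlap, and the two-sided exact permutation p was 0.0159, the smallest these groups allow, or 0.190 after adjustment over 12 shares. Slc16a1 itself was at 51.1 ± 24.9 CPM in HFD and 51.1 ± 26.9 CPM in glutamine, with a log2 fold change of -0.02 ± 0.47 (SE). Bsg encodes basigin, the chaperone both transporters need at the membrane, and its fold change was 0.15 ± 0.19 (SE, log2).

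Slc16a3 is also expressed by macrophages. The 12 macrophage markers summed to 708 to 1963 CPM in the HFD libraries and 417 to 813 CPM in the glutamine libraries, with 11 of the 12 at a fold change below 0 and none called. At an unadjusted edgeR p under 0.05 there were 6 of the 12, against 4.13% of all genes. For Ptprc every glutamine library lay below every HFD library. Of the tested B and plasma cell markers 7 of 7 were below 0, and of the T and NK cell markers 7 of 9, none called. The 8 endothelial markers summed to 538 to 1269 CPM in HFD and 796 to 1738 CPM in glutamine, the 8 mural markers to 312 to 786 and 532 to 1141 CPM, and in each list 7 of 8 fold changes were above 0 and none was called. Mesothelial markers summed to 234 to 537 CPM in HFD and 2.86 to 634 CPM in glutamine. The number of genes with at least 100 counts was 11361 to 13255 in HFD and 12385 to 14469 in glutamine. The part of macrophages and other immune cells, of endothelial and mural cells and of gene detection in the Slc16a3 difference was not tested. Without the HFD libraries 5_11 and 23_28, which held the fewest genes, its fold change was 5.07 (log2).

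**Figure D3:**
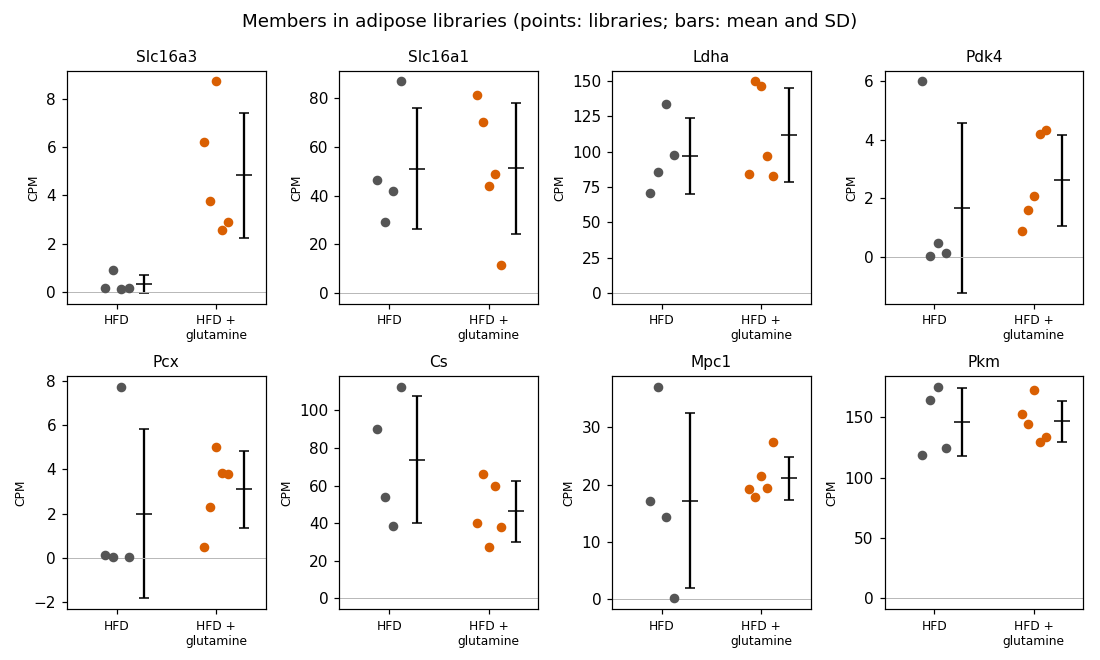
CPM of 8 members in adipose HFD (4 points) and glutamine (5 points) libraries, with the mean and SD of each group beside the points. Slc16a3 points of the groups do not overlap, while Pdk4 and Pcx each have 1 high HFD library.

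In glucose entry and the first steps of glycolysis the adipose groups were close. Slc2a1, the basal glucose transporter GLUT1, was at 21.6 ± 0.911 CPM in HFD (SD, n = 4) and 21.6 ± 12.6 CPM in glutamine (SD, n = 5). The wide glutamine spread came from library 4_6 at 43.9 CPM, since the other 4 lay between 14.4 and 17.9. Hk2 was at 246 ± 61.1 and 255 ± 68.3 CPM. Pfkp, at 182 ± 12.0 and 182 ± 31.9 CPM, had a fold change of -0.01 ± 0.18 (SE, log2). Of the 7 lower glycolysis genes 6 had fold changes below 0, but Pkm was at 146 ± 28.3 and 147 ± 17.3 CPM and Gapdh at 16.8 ± 9.14 and 12.0 ± 11.6 CPM, overlapping widely. Ldha was at 97.0 ± 26.8 and 112 ± 33.3 CPM and Ldhb at 24.9 ± 16.9 and 23.1 ± 16.4 CPM, and both overlapped between the groups.

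The pyruvate dehydrogenase switch had 5 of 6 fold changes above 0, with a median of 0.54 (log2), and none was called. The kinase gene Pdk1 was at 11.3 ± 3.03 CPM in HFD and 15.0 ± 6.71 CPM in glutamine, and Pdk2 at 14.1 ± 7.06 and 20.6 ± 8.60 CPM. For Pdk4 the HFD counts were 323, 1, 25 and 6 and the glutamine counts 37, 96, 106, 201 and 204. Its HFD mean of 1.66 CPM rested on library 1_3 alone, at 5.98 CPM, and 3 of the 4 HFD libraries lay below every glutamine library. Pdp2, a phosphatase that reactivates the complex, was the 1 gene of this role below 0, at -0.91 ± 0.56 (SE, log2), with 17.5 ± 8.79 and 9.51 ± 3.79 CPM.

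Pcx, which encodes pyruvate carboxylase, had a layout like that of Pdk4. Its HFD counts were 8, 2, 399 and 2 and its glutamine counts 21, 137, 256, 185 and 179. The HFD library 14_17 lay above all glutamine libraries and the other 3 HFD libraries below them, so the fold change was 0.66 ± 1.60 (SE, log2). The complex itself stayed close between groups: Pdha1, its E1 alpha subunit, was at 138 ± 30.0 and 135 ± 20.7 CPM. Mpc1 was at 17.2 ± 15.3 CPM in HFD and 21.1 ± 3.81 CPM in glutamine. Its partner Mpc2 was at 91.1 ± 6.47 and 72.4 ± 13.3 CPM, with a fold change of -0.35 ± 0.21 (SE, log2).

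From citrate synthase to succinyl-CoA 7 of 9 fold changes were below 0, with a median of -0.23 (log2). Cs, citrate synthase, had 89.9, 53.8, 38.6 and 113 CPM in the HFD libraries and 40.0, 66.2, 27.4, 59.8 and 38.0 CPM in the glutamine libraries, and these overlap. Its fold change of -0.70 ± 0.35 (SE, log2) had the second smallest p of the members, 0.0630 before adjustment (edgeR). It was -0.42 without the HFD library 23_28. Dld, the dehydrogenase subunit that both pyruvate and 2-oxoglutarate dehydrogenase use, stood at -0.53 ± 0.33. Idh1, the cytosolic isocitrate dehydrogenase, was at 123 ± 62.9 and 102 ± 38.7 CPM and its mitochondrial relative Idh2 at 53.5 ± 28.1 and 50.1 ± 18.8 CPM. Ogdh, at the point where glutamine carbon enters, was at 132 ± 29.8 CPM in HFD and 114 ± 14.1 CPM in glutamine.

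Below succinyl-CoA 7 of 10 fold changes were below 0. Suclg2, the GTP-specific subunit of succinyl-CoA ligase, had counts of 869, 1203, 575 and 457 in HFD and 211, 367, 54, 905 and 381 in glutamine, a fold change of -1.22 ± 0.74 (SE, log2) with 1 glutamine library inside the HFD range. Fh1, fumarate hydratase, was at 27.4 ± 26.8 and 13.2 ± 9.90 CPM, and its HFD libraries alone spanned 3.99 to 62.5 CPM. Sdha, the flavoprotein of succinate dehydrogenase, was at 182 ± 68.2 and 206 ± 12.0 CPM, and Mdh2 at 232 ± 70.9 and 281 ± 63.1 CPM.

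The members outside the panel gave 0 calls in adipose as well. The trimeric isocitrate dehydrogenase of mitochondria had Idh3a at 23.4 ± 9.20 CPM in HFD (SD, n = 4) and 30.4 ± 15.9 CPM in glutamine (SD, n = 5), Idh3b at 41.5 ± 14.8 and 36.8 ± 11.2 CPM and Idh3g at 96.5 ± 45.7 and 77.5 ± 25.2 CPM. In succinate dehydrogenase the iron-sulfur subunit Sdhb was at 127 ± 77.0 and 140 ± 29.2 CPM and the anchor Sdhc at 60.4 ± 20.7 and 47.6 ± 18.3 CPM. Dlst, the transferase of the 2-oxoglutarate dehydrogenase complex, had the smallest spread after Pfkp in proportion to its level, 43.1 ± 5.63 CPM over all 9 adipose libraries. Of the pyruvate dehydrogenase subunits, Pdhb was at 75.1 ± 10.9 and 67.5 ± 22.5 CPM and Dlat at 36.7 ± 4.11 and 28.4 ± 10.8 CPM. The kinase gene Pdk3 was at 20.1 ± 13.5 and 29.9 ± 7.06 CPM and the phosphatase gene Pdp1 at 15.9 ± 10.6 and 24.8 ± 4.83 CPM, with 1 low HFD library each, 1_3 for Pdk3 (2.37 CPM) and 23_28 for Pdp1 (4.32 CPM). Pfkm, the muscle-type phosphofructokinase, ran from 0.195 to 28.3 CPM in HFD and from 9.34 to 20.3 CPM in glutamine. Hk1, Gpi1, Aldoa, Tpi1, Sucla2, Suclg1 and Mdh1 had fold changes between -0.21 and 0.35 (log2).

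Summed by role, the adipose groups overlapped at every step. Glucose entry and priming summed to 756 ± 65.9 CPM in HFD and 816 ± 165 CPM in glutamine, and lower glycolysis to 455 ± 123 and 465 ± 75.7 CPM. The lactate genes summed to 173 ± 36.2 and 191 ± 59.9 CPM, of which Slc16a3 was a small part. The pyruvate dehydrogenase switch summed to 80.6 ± 17.8 and 102 ± 17.9 CPM and pyruvate entry to 360 ± 31.8 and 328 ± 33.7 CPM. The TCA cycle summed to 626 ± 80.5 and 530 ± 34.1 CPM down to succinyl-CoA and to 881 ± 173 and 918 ± 57.7 CPM after it. These sums give no test and are led by the most abundant genes.

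Other genes of the same pathways gave 0 calls in adipose. In the list of other glycolysis and glucose entry genes 17 of 25 were tested, 11 above 0, and the smallest p belonged to Slc2a3 (GLUT3) at 1.67 ± 0.87 and Eno2 at 2.51 ± 1.52 (SE, log2). Of 21 tested genes of pyruvate and TCA metabolism 11 were above 0, led by the succinate dehydrogenase assembly factor Sdhaf1 at 0.95 ± 0.42 and the mitochondrial malic enzyme Me3 at -2.04 ± 0.98. The pentose phosphate list had 4 of 8 above 0, with Pgd at -0.36 ± 0.22 and Pgls at 0.40 ± 0.33. Of 18 regulators 8 were above 0, with Arrdc4 at 0.83 ± 0.41 and Txnip at -0.57 ± 0.46, both targets of the glucose sensor ChREBP and MondoA. The hypoxia response list, to whose transcription factor the capitals in the promoters above refer, had 6 of 13 above 0 and a median of -0.01 (log2) against -0.02 over all genes. Its smallest p belonged to Ankrd37 at 4.84 ± 2.05 and Ndrg1 at -0.24 ± 0.18, and none of the 13 was called.

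In bone marrow each library held its own subset of the pathway. The number of members with at least 100 counts was 24, 22, 10 and 7 in the HFD libraries 1_3, 5_11, 14_17 and 23_28. It was 20, 20, 7, 36 and 24 in the glutamine libraries 4_6, 10_12, unnumbered, 18_20 and 25_27. Genes in general did the same: of 8790 genes with at least 100 counts in every adipose library, the bone marrow libraries held 16.9% to 67.1% at that level, and of the 38 members among them 18.4% to 86.8%. Of the 441 member values, 39.5% were below 10 counts and 30.6% were 1000 or more, with 7.94% at 100 or more but below 1000. The summed level was still like that of adipose, 0.198% to 0.579% of counts, since a few genes carried it. In the unnumbered library Mdh2 alone held 52.3% of the member counts, and in the HFD library 23_28 Hk1 held 31.4%.

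Mdh2 was the most widely found, with at least 100 counts in 8 of 9 bone marrow libraries, followed by Hk1, Mpc2, Pdha1 and Slc16a1 in 7. Another 38 members reached it in 1 to 6 libraries. At the other end 6 members never reached 100 counts in any: Gapdh with 0 to 4 counts, Pgk1 with 0 to 1, Pgam1 with 0 to 2, Eno1 with 0 to 3, Ldhb with 1 to 6 and Mpc1 with 0 to 50. Gapdh, Pgk1, Pgam1 and Eno1 encode consecutive steps of lower glycolysis. How many of all genes never reached 100 counts in bone marrow was not counted, and low detection was general in these libraries. In the same libraries the steps before and after them could be high, with Tpi1 at up to 9974 counts and Pkm at up to 15521. The copies of Gapdh held 157 bone marrow counts in all, beside 21 for Gapdh, and those of Eno1 held 79, beside 14 for Eno1.

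The low bone marrow counts followed the level of the gene in adipose. Among the members under 100 counts in a bone marrow library, 13 to 42 per library, Spearman's rho with the summed adipose counts was 0.328 to 0.839, as a description across genes. Over all genes under 100 counts in that library it was 0.686 to 0.818. Among the members with at least 100 counts, 7 to 36 per library, it was -0.377 to 0.572. Where these low counts came from was not tested, and a bone marrow value under 100 is read here as not shown to be expression of that library.

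**Figure D4:**
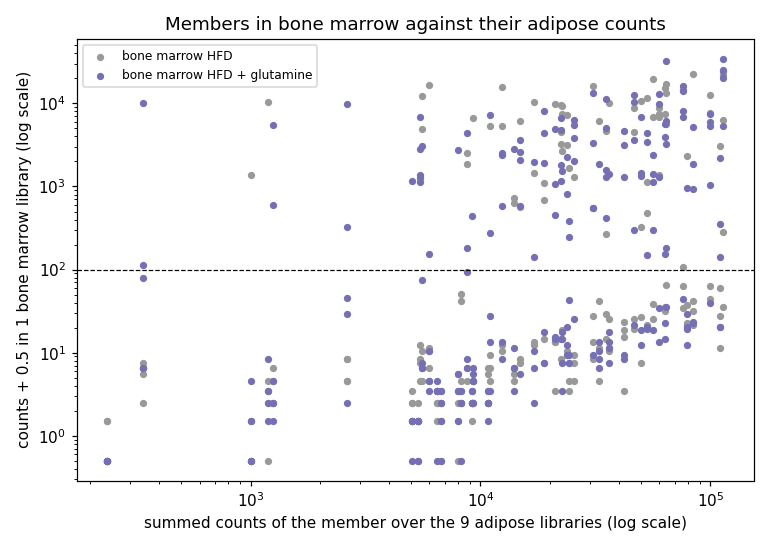
Counts of each member in each of the 9 bone marrow libraries (vertical axis, 0.5 added, log scale) against its summed counts over the 9 adipose libraries (horizontal axis, log scale), with a dashed line at 100 counts. Below the line the points rise with the adipose counts, and above it they scatter up to 34286.

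Against that background glutamine gave no called member in bone marrow either. Only 35 of the 49 had enough counts to be tested, and 0 were called by edgeR, against 0.132% of the 6041 genes tested. At an unadjusted p under 0.05 there were 5, while 18.7% of all genes had such a p. Other methods did not stay at 0: DESeq2 called 7 members, 4 higher and 3 lower, with 12.0% of all genes called and 11 members without an adjusted p, and a fit of both tissues called 14, with 25.8% of all genes called. Limma-voom called 0. Of the tested members 11 were above 0 and 24 below, where 46.6% of all genes were above 0, with a median of -0.50 (log2) against -0.22 over all genes, and fold changes of genes near 0 in 1 group depend on the prior count of the fit.

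Pdp2 (ENSMUSG00000048371.8, chr8:104591451-104599026, plus strand) was the 1 member whose bone marrow groups did not overlap. Over all genes 2.48% had groups without overlap, 1.95% with glutamine higher, so 1 of 35 tested members is close to the share over all genes. Its counts were 7, 12, 8 and 4 in the HFD libraries and 2825, 1371, 6790, 1118 and 1276 in the glutamine libraries 4_6, 10_12, unnumbered, 18_20 and 25_27. All 5 glutamine libraries held over 1000 counts of this phosphatase gene, including the unnumbered one with only 7 members at 100 counts, and no HFD library held more than 12. The log2 fold change was 8.99 ± 3.36 (SE) with an edgeR adjusted p of 0.197, which does not pass. The adjusted p ran from 6.84e-07 (DESeq2) to 0.622 (a stricter count filter). Total counts were 20138289 to 37984603 in HFD and 13970788 to 31195177 in glutamine. Genes with at least 100 counts numbered 1755 to 4257 and 1831 to 7323. The part of depth and gene detection in the Pdp2 difference was not tested. In adipose the fold change of the same gene was -0.91 (log2), not called and with groups that overlapped. It ran from -1.18 to -0.13 over the alternatives.

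The other 5 members with the smallest p in bone marrow overlapped between treatments. Pfkl, the liver-type phosphofructokinase, had 9954, 29, 2, 328 and 45 counts in the glutamine libraries and 4 to 8 in HFD, a fold change of 7.97 (log2). Suclg1, the shared alpha subunit of succinyl-CoA ligase, had 8, 4649, 9, 3153 and 1304 in glutamine and 3 to 23 in HFD (7.03). Pdk1 had 16779 counts in the HFD library 1_3 and 6 to 11 in the other 3, against 155 at most in glutamine (-6.66). Without that library its fold change turned to 0.67. Idh2 had 9266, 18, 2667 and 7412 counts in HFD and 3, 7, 17, 1549 and 14 in glutamine (-5.59). Mdh2 had 21998, 6239, 282 and 35 in HFD and 5375 to 34286 in glutamine, at 2.78 ± 1.62 (SE). None of the 5 passed at an edgeR adjusted p of 0.05.

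For the rest of the panel the bone marrow counts show the same alternation. Ldha held 8760, 4560, 25 and 19 in HFD and 300, 12577, 21, 3612 and 10530 in glutamine. Hk2 was at 11 to 3044 counts, Pfkp at 12 to 2316, Pkm at 14 to 15521, Cs at 4 to 6373, Idh1 at 7 to 10732, Ogdh at 19 to 11753, Sdha at 21 to 22701 and Fh1 at 4 to 4418, in each case with libraries of both treatments on both sides of 100. Pdha1 held 1363 to 8737 counts in HFD and 13, 9716, 34, 12845 and 1284 in glutamine. Slc2a1 reached 100 counts in 1 library (446 in glutamine 18_20), as did Pdk2 (2715, the same library), Pdk4 (1385 in HFD 5_11) and Pcx (10368 in HFD 1_3). Slc16a3, the member with the smallest p in adipose, held 5546 counts in glutamine 10_12 and 597 in 18_20 and 1 to 6 in the other 7 libraries, too few to be tested. Outside the list 0 genes of the 5 pathway lists were called. Their smallest p belonged to Pfkfb3 (-7.56) and Slc2a3 (2.99), Me1 (7.20) and Pdpr (-2.42), Taldo1 (-2.84) and Pgd (-2.43), Ppargc1b (5.17) and Arnt (-2.25), and Higd1a (7.99) and Egln1 (4.37), as log2 fold changes.

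Whether glutamine acted differently in the tissues was tested as the difference of the effects, adipose minus bone marrow. Here 7 of 49 members were called by edgeR, against 11.9% of 15203 genes, a similar share. The effect was higher in adipose for 3 and lower for 4, against 4.05% and 7.87% of all genes. The phosphatase gene Pdp2 stood at -10.14 ± 1.85 (SE, log2, edgeR adjusted p 0.0432) and Pdp1, the other phosphatase, at 8.40 ± 2.39. The rest were Pdk4 at 8.88 ± 2.78, Pcx at 9.69 ± 3.06, Sdhd at -9.10, Suclg1 at -7.32 ± 2.06 and Suclg2 at -7.85 ± 2.54, with edgeR adjusted p up to 0.0481. The adipose fold changes of these 7 lay between -1.22 and 0.66. In bone marrow Pdp1 and Pcx were high only in the HFD library 1_3 (6737 and 10368 counts), Pdk4 only in HFD 5_11 (1385), Suclg2 only in glutamine 25_27 (1150) and Sdhd in glutamine 4_6 (10123) with 112 counts in 25_27. Pdp2 is the 1 of the 7 with all libraries of a bone marrow group high.

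These calls sat at the threshold. 0 members were called with relative log expression factors, with upper-quartile factors or with limma-voom, and 0 without any 1 of the adipose libraries or without the bone marrow HFD library 23_28. Without Pdp2's highest library, the unnumbered one, its value was -8.46 with an edgeR adjusted p of 0.0349.

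Adipose against bone marrow describes what each kind of sample held, and tissue, isolation and count table cannot be told apart in it. Gapdh, Pgam1 and Eno1, which encode steps between glyceraldehyde phosphate and phosphoenolpyruvate, and Ldhb, the B subunit of lactate dehydrogenase, were measured in adipose and nearly missing from bone marrow. Eno1 had 340 to 1217 counts in adipose and 0 to 3 in bone marrow, Pgam1 88 to 1307 and 0 to 2, Gapdh 156 to 1904 and 0 to 4, and Ldhb 99 to 2205 and 1 to 6. The Gapdh and Eno1 values stay uncertain in both tissues, since how reads that fit their copies were counted is not given. Pgk1, whose step lies between those of Gapdh and Pgam1, was low in both, with 0 to 101 counts (median 5) in adipose and 0 to 1 in bone marrow. Gapdh, Pgam1, Eno1 and Ldhb are the 4 members whose tissues did not overlap, while 12.9% of all genes did so, 12.1% with adipose higher. So 4 of 49 members is not above the share over all genes and is not read as a result about lower glycolysis. Relative to the median of all genes, others such as Hk1, Mdh2 and Slc16a1 were lower in adipose.

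By edgeR 14 of 49 members were called, against 51.7% of 15203 genes, 6 higher in adipose and 8 lower, where 40.5% and 11.2% of all genes were called higher and lower. The split moved with the scaling and with other settings. The median of all genes was 1.43 (log2, adipose over bone marrow) with TMM factors and -1.94 with relative log expression factors, which called 36 members, 4 higher and 32 lower, and 59.1% of all genes. Upper-quartile factors called 34 members (4 higher, 30 lower) and 55.0% of all genes, DESeq2 29 (4 higher, 25 lower) and 42.2%, and limma-voom 14 (14 higher, 0 lower) and 29.4%. A fit with a replicate block on the shared numbers called 14 (14 higher, 0 lower) and 50.6% of all genes. Without the 2 adipose libraries with the fewest genes 7 members were called, 0 of them lower, and 39.3% of all genes. Values are therefore given relative to the median of all genes in the same fit. Pgam1 stood at 5.18 (log2), Eno1 at 4.77, Ldhb at 4.38, Gapdh at 3.85, Mpc1 at 2.75 and Slc2a1 at 2.65 above it. Sdhd stood at -5.76, Pfkm at -5.08, Idh3a at -4.96, Hk1 at -4.85, Slc16a1 at -4.44, Gpi1 at -4.34, Mdh2 at -4.03 and Pdha1 at -3.72. All 14 kept these signs relative to the median under every alternative run. Of the 6 higher members Eno1, Pgam1, Ldhb and Slc2a1 stayed called under all 29 alternatives, while Gapdh lost its call under 3 and Mpc1 under 4. Each of the 8 lower members lost its call under some: Mdh2 and Slc16a1 under 3, Hk1, Idh3a and Sdhd under 4 (of 27 for Sdhd), Gpi1 and Pfkm under 11 and Pdha1 under 16.

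The median member lay -2.76 (log2) from the median of all genes, and the 8 lower members differed in how many bone marrow libraries held them. Of the 9, Mdh2 reached 100 counts in 8, Hk1, Slc16a1 and Pdha1 in 7, Gpi1 in 6, Idh3a in 5, Pfkm in 3 and Sdhd in 2. Hk1 had 64, 5644, 13511 and 16955 counts in HFD and 32495, 183, 35, 6219 and 3221 in glutamine. Sdhd, at 1 to 66 counts in adipose, had 10123 counts in the bone marrow library 4_6, 112 in 25_27 and 2 to 78 in the other 7.

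Shares of 1 gene within its paralogue group do not depend on the scaling, and 6 of 12 such shares differed between tissues (exact permutation, adjusted p under 0.05). Ldhb made up 17.3% ± 9.81 of lactate dehydrogenase counts in adipose (2.18% to 29.9%, n = 9) and 0.0944% ± 0.118 in bone marrow (0.0159% to 0.332%, n = 6), without overlap (exact permutation, adjusted p 0.00296). In bone marrow libraries with enough counts, nearly all lactate dehydrogenase counts were thus of Ldha, the form known for turning pyruvate to lactate. A share does not remove the patchy detection of genes in bone marrow, so it does not show that the cells lacked Ldhb. Mdh1, the cytosolic malate dehydrogenase, made up 22.9% ± 7.32 beside Mdh2 in adipose (n = 9) and 4.20% ± 7.56 in bone marrow (n = 8, exact permutation, adjusted p 0.00296). Hk2 made up 63.8% ± 8.76 of its pair in adipose and 24.3% ± 28.2 in bone marrow (n = 9 each, exact permutation, adjusted p 0.00592).

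The other 3 shares that passed varied more in bone marrow. Pfkp held 91.4% ± 5.40 in adipose (n = 9) and 22.8% ± 41.7 in bone marrow (n = 5, exact permutation, adjusted p 0.0192), where 1 library was at 96.4% and the others at most at 15.8%. Mpc2 held 80.6% ± 9.62 and 97.9% ± 4.99 (n = 9 and 7, exact permutation, adjusted p 0.00420). Pdp2 held 38.8% ± 22.0 and 83.1% ± 40.7 (n = 9 and 6, exact permutation, adjusted p 0.0400), since all 5 glutamine libraries of bone marrow were at 99.5% or more and the 1 HFD library that could be read was at 0.104%. Between treatments 0 of 12 shares passed in adipose and 0 of 10 in bone marrow, where the smallest p these numbers allow is often above 0.05. At an unadjusted exact permutation p under 0.05 there was 1 in adipose, that of Slc16a3.

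**Figure D5:**
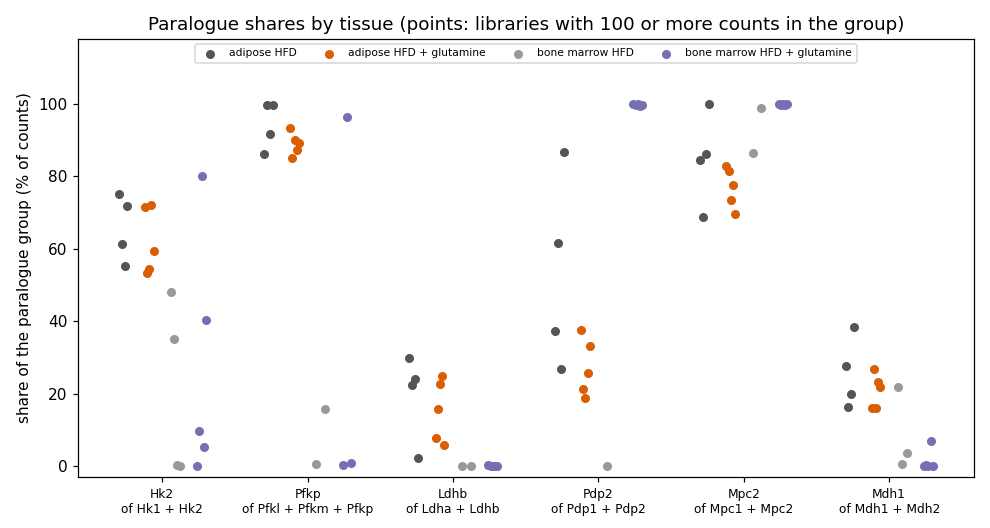
Share of 1 gene in the summed counts of its paralogue group, in percent, for the 6 shares that passed between tissues, with 1 point per library that had at least 100 counts in the group. Ldhb lies between 2.18% and 29.9% in adipose and at most at 0.332% in bone marrow, and Pdp2 is near 100% in every bone marrow glutamine library.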

How the data were processed

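The authors deposited 1 table per tissue of whole-number read counts per gene, not normalized as far as the values show. Per the labels' protocols, libraries were made from 30 ng of RNA with a 3′ end kit (QuantSeq FWD) and only read 1 was used. Per the submitters' processing notes the tools were FastQC 0.12.1, STAR 2.7.10b and HTSeq 0.11.3, and the build GRCm38. The strand setting and the treatment of duplicates and multi-mapped reads are not stated in the labels, so a gene and an overlapping gene on the other strand (Pfkm and Senp1, Pfkp and Pitrm1, Gapdh and Iffo1 among members) cannot be told apart. Positions come from GENCODE M21.

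Each tissue was tested on its 9 libraries with edgeR 4.0.16 in R 4.3.3 (filterByExpr, TMM, quasi-likelihood F test, two-sided, Benjamini-Hochberg over all genes tested, called at an adjusted p under 0.05). The difference of effects and the tissue difference used 1 fit of 18 libraries. Standard errors are the fold change divided by the square root of F. CPM uses a library's total count without scaling, while overlap of groups used TMM-scaled CPM. Shares used libraries with at least 100 counts in the group and exact permutation over libraries. Tests were tried on counts simulated with the same fixed spread for every gene. That spread was not taken from these libraries, so the trial does not measure power or false calls in bone marrow. Depth is given as total counts, and errors are SDs between libraries. Copies were found with blastn 2.17.0, promoters matched by symbol.

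Alternatives were upper-quartile and relative log expression factors, no filter and a stricter one (100 counts in 4 libraries), DESeq2 1.42.0, limma 3.58.1 voom, robust fitting, a joint fit, a replicate block and leaving out each library. Fits without doubted libraries were added after seeing the data. The members, the pathway and marker lists and the panel were chosen with earlier results of these data known. Named are all called members, the 6 smallest p per glutamine comparison, a fixed panel of 21 members, and the 2 smallest p per pathway list.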

Additional observations from a re-analysis of the deposited data

Results flagged for a closer look

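The difference of the glutamine effects between tissues (adipose minus bone marrow, log2) was past the edgeR threshold for 7 members: Pdp2 at -10.14, Sdhd at -9.10, Suclg2 at -7.85, Suclg1 at -7.32, Pdp1 at 8.40, Pdk4 at 8.88 and Pcx at 9.69. Outside Pdp2 and Suclg1 these rest on 1 or 2 bone marrow libraries with high counts.

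Some libraries lay far from the others of their group, which chance gives for about 1 group in 20. In adipose HFD these were library 1_3 for Pdk4 (5.98 CPM, 17.0% of the kinase counts) and Pfkm (28.3 CPM, 12.3% of the phosphofructokinase counts), library 14_17 for Pcx (7.73 CPM), and library 5_11 for Slc16a3 (0.920 CPM, 3.05% of its pair) and, on the low side, Tpi1 (21.7 CPM). In adipose glutamine they were library 10_12 for Gapdh (32.0 CPM), which also held the most genes with at least 100 counts (14469), and library 4_6 for Slc2a1 (43.9 CPM). That is 5 of 49 members in adipose HFD and 2 of 49 in adipose glutamine. In bone marrow it was 20 of 49 in HFD and 23 of 49 in glutamine. Among the 6 bone marrow members with the smallest p these were Pdk1 in HFD 1_3 (441.7 CPM) and glutamine 18_20 (4.97 CPM), Idh2 in glutamine 18_20 (49.7 CPM), Mdh2 and Pdp2 in the unnumbered library (2031 and 402 CPM) and Pfkl in glutamine 4_6 (428 CPM).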

How the results depend on the processing

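In adipose the count of called members stayed at 0 under every alternative, and in bone marrow under every one but DESeq2 (7) and the joint fit of both tissues (14). For the difference of effects the 7 calls became 0 with relative log expression factors, upper-quartile factors, limma-voom or without the 2 adipose libraries with the fewest genes, and 4 without a count filter; leaving out 1 library gave 0 to 10. Between tissues the 14 calls became 36 with relative log expression factors, 34 with upper-quartile factors, 29 with DESeq2 and 7 without the 2 adipose libraries; leaving out 1 library gave 12 to 19. The shares passing between tissues stayed within 4 to 7. Members detected averaged 18.9 per bone marrow library at 100 counts and 29.7 at 10 counts. Of the named fold changes 1 reversed: Pdk1 in bone marrow, 0.67 without the HFD library 1_3, with -7.14 as the lowest when 1 library was left out. The cause of these shifts was not tested.

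With a replicate block on the shared number pairs 0 members were called for the difference of effects, and also 0 on the same libraries without the block. Between tissues the blocked fit called 14, all higher, of which 6 were shared with the unblocked fit. Deviations from the group mean of libraries with the same number had correlations of -0.007 to 0.025 over 8 pairs. In 4 of 8 the own number correlated best, among libraries of the same treatment only. With the patchy detection in bone marrow this cannot decide whether the numbers pair the libraries. The labels do not say what the shared numbers mean, and the main fits did not use them. Low counts limit bone marrow, where 14 members could not be tested.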
